A study of Mus musculus with 4 samples.

Results

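The small nucleolar RNA (snoRNA) host long non-coding RNAs (lncRNAs) of mouse female germline stem cells (FGSCs) were examined after knockdown of the lncRNA Gm26917. The set comprised Gas5, Snhg1, Snhg3, Snhg4, Snhg5, Snhg6, Snhg8, Snhg12, Zfas1 and Epb41l4aos, chosen by gene name as spliced non-coding hosts of snoRNAs that the expression table listed. These 10 genes named 11 of the table's 12701 rows, because Snhg4 named both a lncRNA row and a protein-coding row. The lncRNA row of each gene was used throughout, and the protein-coding Snhg4 row was described separately. FGSCs, an ovary-derived germ stem cell line by the labels, had been infected with lentivirus encoding a short hairpin RNA against Gm26917 (shGm26917, 2 libraries) or a control hairpin (shNC, 2 libraries). Infected cells of this study were selected with puromycin or blasticidin S. Which of the study's Gm26917 hairpins these libraries carry, and the age of the source animals, are not stated for them. The study writes of biological replicates, but no source ties each library to its own culture, and every p-value below therefore reflects library-to-library spread alone, which may be technical. Total RNA was sequenced from bulk cells, in which fewer cells of a type and less RNA per cell cannot be told apart.

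A snoRNA host gene is transcribed and spliced like other genes, and its snoRNAs are cut out of the removed introns. Most snoRNAs guide chemical marking of ribosomal RNA: those with boxes C and D direct 2′-O-methylation, and those with boxes H and ACA direct pseudouridylation. The spliced exons of the non-coding hosts are, in mammals, typically exported and degraded by nonsense-mediated decay, and many of these genes start with a pyrimidine tract like that of ribosomal protein mRNAs, the 5′ TOP motif. The level of a host transcript in RNA-seq therefore reflects both its synthesis and its decay, and is not a level of the snoRNAs it carries.

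In the GENCODE M21 annotation of mm10, the 10 host genes held 33 snoRNA entries on their own strand, at 31 positions that did not overlap. Gas5 held 9 entries, Snhg1 held 8, Snhg12 held 5 and Zfas1 held 3. Snhg3 and Snhg5 held 2 each, and Snhg4, Snhg6, Snhg8 and Epb41l4aos held 1 each. A further 2 entries, inside Gas5 and Snhg4, were annotated as snoRNAs under a microRNA symbol and were not counted. All 33 lay in an intron of at least 1 transcript of the host, and 29 of them also lay inside an exon of another annotated transcript of the same host. The entries were 60 to 205 bases long. Boxes C (TGATGA in the first 25 bases) and D (CTGA in the last 20) were found in 20 of them, an ACA in the last 8 bases of 8 longer ones, and 5 matched neither exact rule. None of the 33 was listed in the expression table, so the hosts are the only readout of these loci here.

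The cargo of the hosts is shown by 6 snoRNAs from the annotation's transcripts on mm10, chosen to give both box classes and several of the hosts described below. Capitals mark boxes C and D, or the ACA near the 3′ end. Snord47 and the shorter of the overlapping Snord80 entries lie in Gas5 introns (chr1:161038082-161038158 and chr1:161037604-161037680, plus strand). Snord12 lies in Zfas1 (chr2:167065276-167065365, plus strand), and Snord50a and Snord50b lie in Snhg5 (chr9:88521529-88521600 and chr9:88521797-88521868, minus strand). Snora24 lies in Snhg8 (chr3:123507937-123508066, minus strand).
Snord47: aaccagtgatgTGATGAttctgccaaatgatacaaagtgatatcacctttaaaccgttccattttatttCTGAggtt
Snord80: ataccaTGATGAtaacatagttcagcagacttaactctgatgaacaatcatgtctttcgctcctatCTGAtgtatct
Snord12: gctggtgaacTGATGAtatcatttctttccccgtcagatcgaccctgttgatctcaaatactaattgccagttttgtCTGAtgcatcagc
Snord50a: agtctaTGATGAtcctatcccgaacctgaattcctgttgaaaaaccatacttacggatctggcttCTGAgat
Snord50b: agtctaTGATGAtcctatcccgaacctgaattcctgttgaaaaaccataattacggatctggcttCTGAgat
Snora24: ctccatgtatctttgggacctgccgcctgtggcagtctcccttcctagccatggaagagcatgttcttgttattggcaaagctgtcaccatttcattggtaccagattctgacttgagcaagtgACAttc
The Snord50 copies of Snhg5 differed at 1 of 72 bases, and the Snora73 copies of Snhg3 at 7 of 205 bases, so each pair shares nearly all of its sequence.

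**Figure D1:**
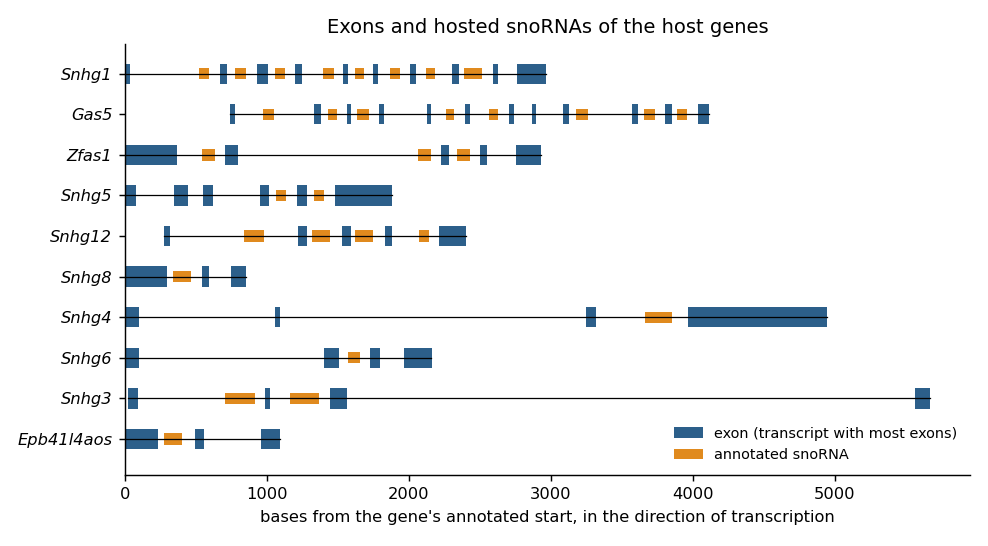
Exons (blue) and annotated snoRNAs (orange) of the 10 host genes, drawn to scale in bases from each gene's annotated start in the direction of transcription; the transcript with most exons is drawn, so Gas5 and Snhg12 start to the right of 0. The orange blocks sit between the blue ones, with 9 entries in Gas5 (2 of them overlapping) and 8 in Snhg1.

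Start-site windows were available from RefSeq (GRCm38.p6) for 7 of the genes, with 8 windows because Gas5 had a pair of start sites. A pyrimidine tract, defined as a C followed by at least 4 bases that are each C or T, on the gene's strand and beginning within 10 bases of the start, was present in 5 of the 8 windows. The same tract was present in 29.7% of all 32851 RefSeq windows and in 37 of 68 windows of cytosolic ribosomal protein genes (54.4%). TATAAA on either strand, searched from 250 bases before to 50 bases after the start, was present in 4 of the 8 windows, against 13.6% of all windows. Below are 4 windows of 60 bases around the start, with the tract in capitals, for Gas5 (its second start, chr1:161035136-161035195, plus strand), Snhg12 (chr4:132308648-132308707, plus strand), Snhg8 (chr3:123508307-123508366, minus strand) and Zfas1, in which the tract was not found (chr2:167062904-167062963, plus strand). They are shown because the start-site tract is a feature that the choice of these genes did not use.
Gas5: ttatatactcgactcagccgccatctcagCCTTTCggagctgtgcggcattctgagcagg
Snhg12: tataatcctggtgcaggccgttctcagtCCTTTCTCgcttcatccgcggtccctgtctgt
Snhg8: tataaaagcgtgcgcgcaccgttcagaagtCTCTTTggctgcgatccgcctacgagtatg
Zfas1: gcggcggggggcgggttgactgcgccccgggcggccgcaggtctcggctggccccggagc
A match describes the letters in the window and is not evidence of a factor or of regulation.

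The listed genes summed to between 755159 and 771715 CPM (read counts that the authors scaled to a common library size) in each library, and the steps between low values gave roughly 12850000 to 17940000 reads per library, an approximation because whole reads could not be recovered. On that approximation, Gas5 rested on 1509 to 2286 reads and Epb41l4aos, the lowest member, on 81 to 114 reads. Gm26917, the targeted gene, was at 136 and 104 CPM in shGm26917 FGSCs, against 155 and 157 CPM in shNC FGSCs. Its log2 difference of −0.39 did not pass the test (adjusted p = 0.0696, limma). That difference was −0.58 without shGm26917 replicate 1 and −0.19 without shGm26917 replicate 2. It was −0.39 without shNC replicate 1 and −0.38 without shNC replicate 2. Here and below, leaving out a library leaves 1 in its group, which is assumed to vary like the other group, so an adjusted p under 0.05 in such a fit shows how far a value depends on that library and is no second test of the groups. Gm42418, grouped here with the Gm26917 locus, fell to 729 and 687 CPM in shGm26917 FGSCs, against 2882 and 3462 CPM in shNC FGSCs (log2 difference −2.16, adjusted p = 5.57e-05). How reads were divided between these gene models was not tested. Of 6 germline markers Kit and Ifitm3 were listed, with summed levels of 1281 and 1239 CPM in shGm26917 FGSCs, against 1366 and 1303 CPM in shNC FGSCs, and the defining markers Ddx4, Dazl, Pou5f1 and Prdm1 were not listed. Kit made up most of that sum and was not called (−0.04, adjusted p = 0.721), and Ifitm3 was lower, at 52.9 and 52.6 CPM in shGm26917 FGSCs, against 86.8 and 99.6 CPM in shNC FGSCs (−0.81, adjusted p = 0.000902). Of 6 mast cell markers, Cpa3 and Ms4a2 were listed, and their summed level, nearly all Cpa3, was 734 and 823 CPM in shGm26917 FGSCs, against 492 and 543 CPM in shNC FGSCs. Cpa3 was called higher (log2 difference 0.59, adjusted p = 0.00324), while Ms4a2, listed at 0.251 and 0 CPM in shGm26917 FGSCs, against 1.82 and 2.29 CPM in shNC FGSCs, was called lower (adjusted p = 0.00255). Ms4a2 was listed only through its shNC values, so its call is no test of the groups. All 5 fibroblast markers were listed, with summed levels of 356 to 368 CPM in shGm26917 FGSCs, against 409 to 427 CPM in shNC FGSCs, and 1 of them, Thy1, was called lower (−0.78, adjusted p = 0.000837). Of 5 granulosa cell markers only Inhba was listed, at 16.3 and 14.7 CPM in shGm26917 FGSCs, against 31.5 and 33.3 CPM in shNC FGSCs. Inhba was called lower (log2 difference −1.04, adjusted p = 0.000517, limma). The part of these marker levels in the results below was not tested.

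The hosts covered a wide range of expression. Snhg1 and Gas5 were the most abundant, and together they made up 55.1% of the summed CPM of the 10 genes. The largest mean over the 4 libraries, 149 CPM for Snhg1, was 23.7 times the smallest, 6.30 CPM for Epb41l4aos. Among the 510 lncRNA rows of the table, Snhg1 ranked 21, Gas5 ranked 25, Zfas1 ranked 35 and Epb41l4aos ranked 141 by mean CPM.

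Levels of different genes were compared per kilobase of the median annotated transcript length. On that scale, in shGm26917 FGSCs, Snhg1 was at 256 ± 61.9 CPM per kilobase and Gas5 at 213 ± 14.8 (SD, n = 2 libraries each), and these neighbours did not differ beyond their spread. Zfas1 (102 ± 24.2), Snhg8 (59.3 ± 10.1), Snhg5 (43.0 ± 0.095) and Snhg12 (34.9 ± 2.61) followed, and each of these differed from the gene before it by more than the summed SDs. Snhg12 was not apart from Snhg6 (29.0 ± 6.22), nor were Snhg6, Snhg3 (28.8 ± 11.98) and Snhg4 (25.2 ± 2.65) from each other, and Epb41l4aos was lowest at 15.3 ± 4.16. In shNC FGSCs the first 8 places were held in the same order, from 238 ± 19.0 CPM per kilobase for Snhg1 to 20.6 ± 7.87 for Snhg3, and the last places were exchanged, with Epb41l4aos at 19.1 ± 0.601 above Snhg4 at 15.9 ± 0.584. This order depends on the length used. Per kilobase of all annotated exonic sequence, Snhg1 stayed first, at 52.0 in shGm26917 and 48.4 in shNC FGSCs. On that scale Snhg8 (36.7 and 35.5) came before Gas5 (35.6 and 30.5), since 20 of the 25 annotated Gas5 transcripts retain an intron. No SD was set beside these values, and those of Snhg8 and Gas5 in shGm26917 FGSCs lie close together.

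**Figure D2:**
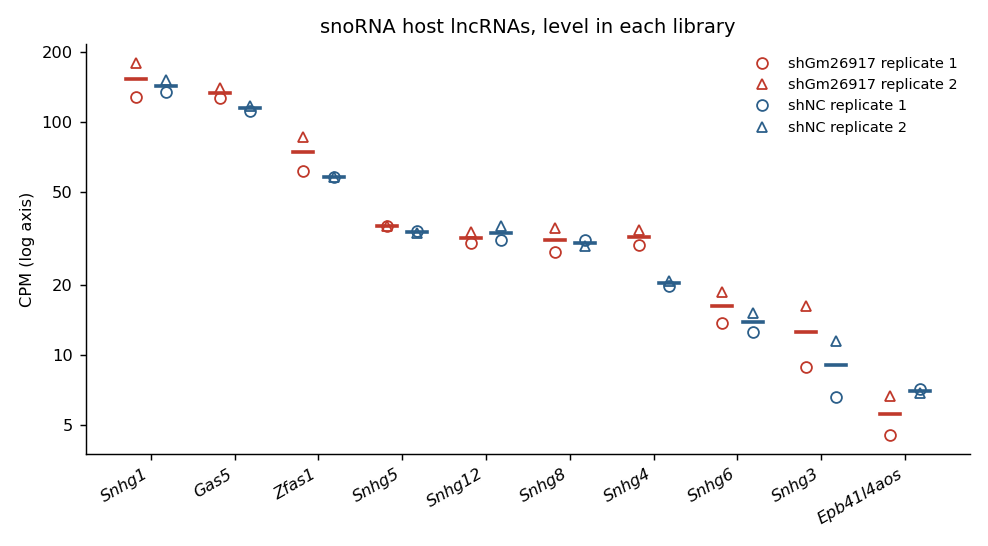
Level of each host lncRNA in CPM on a log axis, with shGm26917 libraries in red to the left and shNC libraries in blue to the right; circles are replicate 1, triangles replicate 2, and bars the mean of 2 libraries. The groups are separate for Snhg4, Gas5, Zfas1 and Snhg5, which were higher in both shGm26917 libraries, and for Epb41l4aos, which was lower in both.

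The members were compared between shGm26917 and shNC FGSCs. Of the 10, Snhg4 and Gas5 were higher in shGm26917 than in shNC FGSCs at an adjusted p under 0.05 (limma on log2(CPM + 0.5), Benjamini-Hochberg over all 12701 genes), and 0 were lower. Over all genes, 11.6% were called higher and 11.5% lower. Among lncRNA rows with a mean of at least 5 CPM, which every member reached, 22.8% were called higher and 15.6% lower. The 2 of 10 called higher is close to the share of those rows. At an unadjusted p under 0.05 the members' counts were the same, 2 higher and 0 lower, beside 18.0% of all genes higher and 19.2% lower. Both shGm26917 libraries were above both shNC libraries for 4 members, a pattern that 31.5% of all genes showed, and below them for 1 member, against 32.7% of all genes. The median log2 difference of the 10 was 0.15, with 8 above 0, compared with −0.0058 over all genes and 0.08 over the 510 lncRNA rows.

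Snhg4, the host of the H/ACA snoRNA Snora74a, showed the clearest difference. Its lncRNA row (ENSMUSG00000117869) lies on the plus strand of chr18:35553371-35558316 (mm10), and the annotation gives that identifier the name AC121821.1. The level was 29.7 and 34.4 CPM in shGm26917 FGSCs, against 19.8 and 20.8 CPM in shNC FGSCs. The groups did not overlap, and the gap between them was larger than the spread inside either. The log2 difference was 0.64 (95% interval 0.44 to 0.85, adjusted p = 0.0032), a fold of 1.56 on the log2(CPM + 0.5) scale. It passed the threshold in all 13 alternative settings, with values of 0.54 to 0.75 and adjusted p-values of 1.38e-06 to 0.0286.

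The protein-coding row named Snhg4 (ENSMUSG00000117694, annotated as Gm28285) overlaps the lncRNA row by 4913 bases on the same strand and runs on into Matr3. It was at 2.40 and 1.63 CPM in shGm26917 FGSCs, against 2.46 and 1.67 CPM in shNC FGSCs, a log2 difference of −0.02 (95% interval −0.55 to 0.50, adjusted p = 0.95). With these rows summed, a setting added after the data were seen, the Snhg4 difference was 0.60 (adjusted p = 0.00273). How reads were divided between these overlapping gene models affects both rows. Matr3, the RNA-binding nuclear matrix protein gene that shares this locus, was at 300.2 and 303 CPM in shGm26917 FGSCs, against 326 and 333 CPM in shNC FGSCs (log2 difference −0.13, adjusted p = 0.139). The Gm36989 gene model, which lies inside the protein-coding row, fell to 3.87 and 3.73 CPM in shGm26917 FGSCs, against 7.22 and 8.60 CPM in shNC FGSCs (log2 difference −0.96, adjusted p = 0.00301). Gm50163, antisense to that row, was at 0.474 and 0.727 CPM in shGm26917 FGSCs, against 1.69 and 1.13 CPM in shNC FGSCs (log2 difference −0.79, adjusted p = 0.0502), just outside the threshold, and it passed without shNC replicate 2 (−1.01, adjusted p = 0.020) and with either other scaling (adjusted p = 0.0482 and 0.0499). Gm50163 was listed only through its shNC values, so these p-values are no test of the groups. The higher level at this locus was thus measured for the Snhg4 lncRNA row and not for the other listed gene models that overlap it or its read-through partner.

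Gas5, the growth arrest-specific transcript that holds more snoRNA entries than any other member, rose by a smaller amount. It lies on the plus strand of chr1:161034422-161038539. The level was 127 and 141 CPM in shGm26917 FGSCs, against 112 and 117 CPM in shNC FGSCs. The groups did not overlap, the lower shGm26917 library still lying above the higher shNC one. The log2 difference was 0.22 (95% interval 0.07 to 0.37, adjusted p = 0.0459), which sits just inside the threshold. The call was lost without shGm26917 replicate 2 (0.15, adjusted p = 0.344), without shNC replicate 1 (0.19, adjusted p = 0.0778) and with limma's variance trend and robust moderation turned off (0.22, adjusted p = 0.139). Zbtb37, a zinc finger gene on the opposite strand that overlaps Gas5 by 428 bases, was at 21.4 and 23.0 CPM in shGm26917 FGSCs, against 24.6 and 23.8 CPM in shNC FGSCs (log2 difference −0.12, adjusted p = 0.267).

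Zfas1, transcribed from the other side of the Znfx1 start and host of the Snord12 family, had its spread almost entirely in the knockdown group. It lies on the plus strand of chr2:167062934-167065862. The level was 61.8 and 86.8 CPM in shGm26917 FGSCs, against 58.5 and 58.2 CPM in shNC FGSCs. Both shGm26917 libraries were above both shNC libraries, but replicate 1 was close to them and replicate 2 far above. The log2 difference was 0.33 (95% interval −0.08 to 0.73, adjusted p = 0.212). Without shGm26917 replicate 1 the difference was 0.57 (adjusted p = 0.000401, with the spread taken from the close shNC pair), and without replicate 2 it was 0.08, so the size of this difference is set by which library is kept. Znfx1, which overlaps Zfas1 by 82 bases on the opposite strand, was at 16.8 and 16.1 CPM in shGm26917 FGSCs, against 15.1 and 13.4 CPM in shNC FGSCs (log2 difference 0.20, adjusted p = 0.150).

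Snhg1, in which snoRNA-bearing introns were first recognised as the part of a host gene that is conserved, was the most abundant member. It lies on the plus strand of chr19:8723475-8726443. The level was 128 and 181 CPM in shGm26917 FGSCs, against 136 and 152 CPM in shNC FGSCs. The shNC values lay between the shGm26917 values, so the groups overlapped completely. The log2 difference was 0.09 (95% interval −0.37 to 0.55, adjusted p = 0.765). It was 0.33 without shGm26917 replicate 1 (adjusted p = 0.0271) and −0.16 without shGm26917 replicate 2 (adjusted p = 0.326), so its direction also rested on a single library. Slc3a2, an amino acid transporter subunit gene whose start lies 106 bases away on the opposite strand, was at 556 and 552 CPM in shGm26917 FGSCs, against 574 and 608 CPM in shNC FGSCs (log2 difference −0.09, adjusted p = 0.326).

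Snhg5, the host of the Snord50 copies printed above, had the smallest spread in the knockdown group. It lies on the minus strand of chr9:88521050-88522929. The level was 35.7 and 35.8 CPM in shGm26917 FGSCs, against 34.0 and 33.5 CPM in shNC FGSCs. The groups did not overlap, yet the log2 difference was 0.08 (95% interval −0.06 to 0.22, adjusted p = 0.359), and its interval leaves room for only small changes in either direction.

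Snhg12 and Snhg3 lie near each other on chr4, on opposite strands, and neither passed the test. Snhg12 (chr4:132308623-132311024, plus strand), host of both H/ACA and C/D snoRNAs, was at 30.3 and 33.6 CPM in shGm26917 FGSCs, against 31.1 and 35.8 CPM in shNC FGSCs. The values interleaved, and the log2 difference was −0.06 (95% interval −0.27 to 0.14, adjusted p = 0.637). Snhg3 (chr4:132348014-132353686, minus strand), host of the Snora73 (U17) copies that take part in ribosomal RNA processing, was at 8.89 and 16.3 CPM in shGm26917 FGSCs, against 6.59 and 11.5 CPM in shNC FGSCs. In both groups replicate 2 was well above replicate 1, by a factor of 1.83 in shGm26917 and 1.74 in shNC FGSCs, and the groups overlapped. The log2 difference of 0.45 had the widest interval of the members (−0.66 to 1.56, adjusted p = 0.487). It was 0.03 without shGm26917 replicate 2 and 0.07 without shNC replicate 1, but 0.87 without shGm26917 replicate 1 and 0.82 without shNC replicate 2. With the replicate number as a block it passed the test at the same value (adjusted p = 0.00297), but the labels do not say that a shared number marks a shared culture or batch. The Snhg3 interval overlaps Rcc1 by 5592 bases on the same strand, and Rcc1 encodes a nuclear exchange factor of the GTPase Ran. Rcc1 rose to 43.1 and 47.2 CPM in shGm26917 FGSCs, against 36.8 and 34.5 CPM in shNC FGSCs (log2 difference 0.34, adjusted p = 0.0150), and this call was lost without shGm26917 replicate 2 (0.27, adjusted p = 0.0962). Where these gene models overlap, their reads cannot be told apart here.

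Snhg6 and Snhg8 each carry 1 snoRNA and did not differ between the groups beyond their spread. Snhg6 (chr1:9941959-9944118, minus strand), host of the C/D snoRNA Snord87, was at 13.8 and 18.7 CPM in shGm26917 FGSCs, against 12.5 and 15.1 CPM in shNC FGSCs. Its groups overlapped, and the log2 difference was 0.22 (95% interval −0.15 to 0.58, adjusted p = 0.361). That value was 0.43 without shGm26917 replicate 1 (adjusted p = 0.0521), 0.0012 without shGm26917 replicate 2, 0.08 without shNC replicate 1 and 0.35 without shNC replicate 2. Snhg8 (chr3:123507552-123508404, minus strand), host of Snora24, was at 27.6 and 35.1 CPM in shGm26917 FGSCs, against 31.3 and 29.3 CPM in shNC FGSCs. The shNC values lay inside the shGm26917 range, and the log2 difference was 0.04 (95% interval −0.22 to 0.30, adjusted p = 0.827).

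Epb41l4aos was the member with the largest difference in the other direction. It lies on the plus strand of chr18:33794892-33795986 and holds an H/ACA-type entry named Gm23639. The level was 4.51 and 6.67 CPM in shGm26917 FGSCs, against 7.16 and 6.85 CPM in shNC FGSCs. Both shGm26917 libraries were below both shNC libraries, replicate 2 by little. The log2 difference was −0.32 (95% interval −0.73 to 0.08, adjusted p = 0.218). Without shGm26917 replicate 2 the difference was −0.58 (adjusted p = 0.0471, with the spread taken from the shNC pair), and without replicate 1 it was −0.06.

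**Figure D3:**
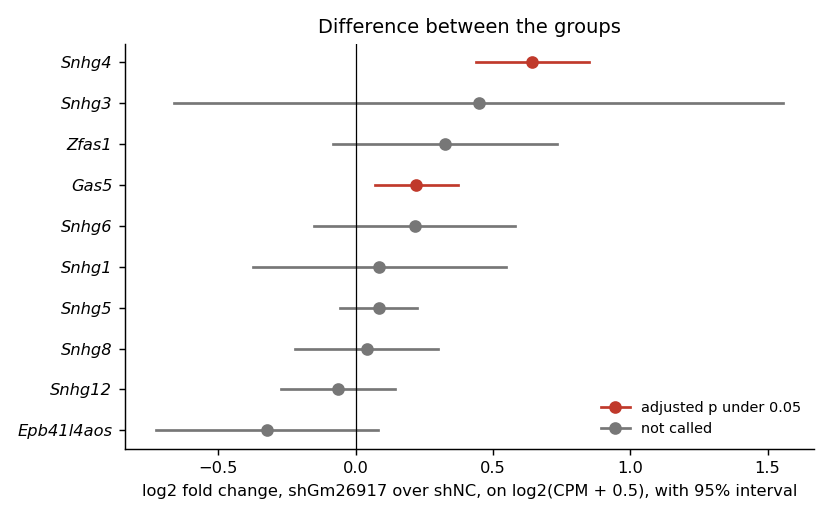
Log2 difference of each host lncRNA, shGm26917 over shNC, on the log2(CPM + 0.5) scale, as points with 95% intervals from limma; red marks an adjusted p under 0.05. The intervals of Snhg4 (0.44 to 0.85) and Gas5 (0.07 to 0.37) lie above 0, and the other 8 include 0, with the widest for Snhg3.

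The largest shared movement of these genes was not between the groups but between the replicates of shGm26917. Every member was higher in shGm26917 replicate 2 than in replicate 1, 10 of 10, with a median log2 difference of 0.38. Over all 12701 genes, 6349 were higher in replicate 2 and the median was 0. Between the shNC replicates 6 of the 10 members were higher in replicate 2, with a median of 0.07. Snhg3 showed the largest difference between the shGm26917 replicates (0.84), followed by Epb41l4aos (0.52), Snhg1 (0.50) and Zfas1 (0.49), and Snhg5 the smallest (0.0045). The summed level of the 10 genes was 468 and 589 CPM in shGm26917 FGSCs, against 449 and 480.1 CPM in shNC FGSCs. The difference between the shGm26917 replicates in this sum was thus larger than that between the group means, 528 ± 85.7 CPM in shGm26917 and 464 ± 22.3 CPM in shNC FGSCs (SD, n = 2 each). Among the other lists, 76 of 79 cytosolic ribosomal protein genes were higher in shGm26917 replicate 2, with a median of 0.22, and 52 of 79 in shNC replicate 2, with a median of 0.04. The other listed non-coding snoRNA hosts did not share this, with 4 of 8 higher in shGm26917 replicate 2 and a median of 0.02, nor did the other 5′ TOP mRNAs, with 10 of 18 and a median of 0.03. Of 20 genes for snoRNP proteins and assembly factors, 16 were higher in shGm26917 replicate 2 (median 0.07) and 9 in shNC replicate 2. Protein-coding hosts outside the ribosome had 16 of 25 higher in shGm26917 replicate 2 (median 0.02), and nonsense-mediated decay genes 7 of 20 (median −0.02). Among 167 lncRNA rows with a mean of at least 5 CPM, 105 were higher in shGm26917 replicate 2 and 101 in shNC replicate 2. These are descriptions of 4 libraries, since a difference between 2 replicates has no error of its own. The members' median log2 difference between the groups was 0.31 without shGm26917 replicate 1 and 0.015 without shGm26917 replicate 2.

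**Figure D4:**
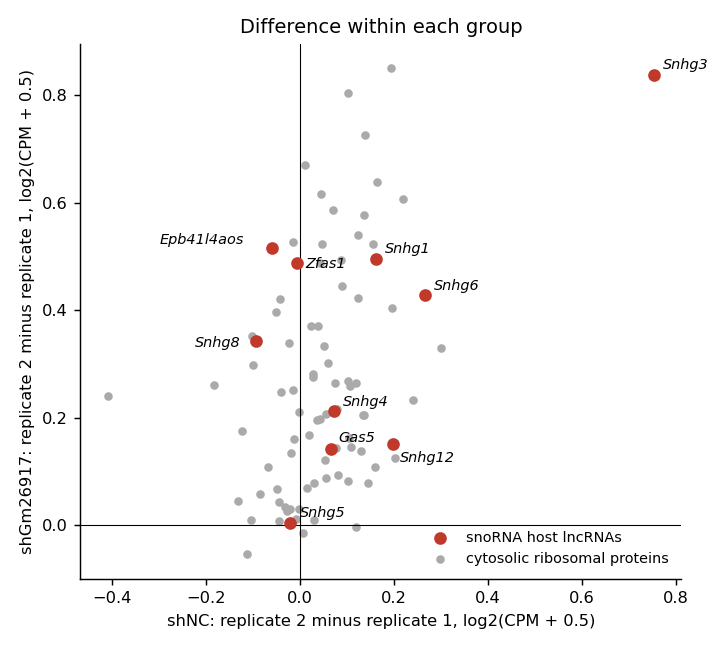
Replicate 2 minus replicate 1 on the log2(CPM + 0.5) scale, in shNC libraries (x axis) and shGm26917 libraries (y axis), for the 10 host lncRNAs (red, named) and 79 cytosolic ribosomal protein genes (grey). All red points and 76 of 79 grey points lie above 0 on the y axis, and the red points lie on both sides of 0 on the x axis.

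Other genes of the snoRNA pathway were read for comparison, from lists chosen by function. Their counts are to be read beside all genes, of which 11.6% were called higher and 11.5% lower. Of 15 further non-coding snoRNA hosts 8 were listed, and 1 rose: Dancr, a lncRNA known as an antagonist of cell differentiation in human cells, was at 12.6 and 14.8 CPM in shGm26917 FGSCs, against 7.28 and 9.57 CPM in shNC FGSCs (log2 difference 0.68, adjusted p = 0.0152). That call held in 12 of 13 alternative settings and was lost with trend and robust moderation turned off (adjusted p = 0.0567). The host 2410006H16Rik, whose interval holds 3 snoRNA entries, was at 61.3 and 93.3 CPM in shGm26917 FGSCs, against 62.3 and 63.6 CPM in shNC FGSCs (log2 difference 0.26, adjusted p = 0.437), the same shape as Zfas1 with replicate 2 apart. It was singled out after its values were seen, and its difference was 0.57 without shGm26917 replicate 1 (adjusted p = 0.000414) and −0.04 without replicate 2. Snhg20 was at a log2 difference of 0.27 (adjusted p = 0.0645) and Snhg18 at −0.25 (adjusted p = 0.275), and the median of the 8 was 0.08.

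Protein-coding snoRNA hosts outside the ribosome were called in both directions, with 6 of 25 higher, 5 lower and a median of −0.05. Those shares were 24% and 20%, against 11.6% and 11.5% of all genes. Ppan, which encodes a ribosome assembly factor, rose to 33.7 and 33.7 CPM in shGm26917 FGSCs, against 24.1 and 24.7 CPM in shNC FGSCs (log2 difference 0.46, adjusted p = 0.00342). Gnl3, which encodes nucleostemin, also rose (0.28, adjusted p = 0.0119, lost without shGm26917 replicate 2 at adjusted p = 0.106), and Cct6a, a chaperonin subunit gene, fell (−0.33, adjusted p = 0.00705).

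In the list of genes for snoRNP proteins and assembly factors, which also held Nat10, 4 of 20 were higher and 0 lower. Those shares were 20% and 0%, against 11.6% and 11.5% of all genes. Dkc1, Nop56 and Nop58 were also in the list of protein-coding hosts, so the calls of Dkc1 and Nop56 as higher count in both lists. Of the 20, 14 were above 0, against 6240 of all 12701 genes, and the median was 0.06. Naf1, an H/ACA assembly factor, rose to 40.3 and 40.1 CPM in shGm26917 FGSCs, against 27.9 and 29.0 CPM in shNC FGSCs (log2 difference 0.49, adjusted p = 0.00248). Nat10, the RNA cytidine acetyltransferase that the study is built on, was at 44.5 and 46.9 CPM in shGm26917 FGSCs, against 37.3 and 32.6 CPM in shNC FGSCs (0.39, adjusted p = 0.0131). Nop56, a core C/D protein gene, was at 186 and 190.2 CPM in shGm26917 FGSCs, against 159.7 and 159.6 CPM in shNC FGSCs (0.23, adjusted p = 0.0181), a call lost without shGm26917 replicate 1 (adjusted p = 0.0784) or replicate 2 (adjusted p = 0.146).

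Genes for nonsense-mediated decay, the route by which spliced hosts are removed, showed 1 of 20 higher, 1 lower and a median of −0.0062. Each count is 5% of the list, against 11.6% higher and 11.5% lower over all genes. Xrn1, the cytoplasmic 5′ to 3′ exonuclease gene, was higher by 0.24 (adjusted p = 0.0449). The Xrn1 call was lost without shGm26917 replicate 1 (adjusted p = 0.135), without shGm26917 replicate 2 (0.117) and without shNC replicate 2 (0.0746). Pnrc2, a decay cofactor gene, did not pass the test (−0.17, adjusted p = 0.057).

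The cytosolic ribosomal protein genes, which share the 5′ TOP start with many hosts, showed 0 of 79 higher, 1 lower and a median of −0.02. Over all genes, the shares were 11.6% higher and 11.5% lower. Rpl7a (−0.18, adjusted p = 0.064) and Rpl28 (−0.14, adjusted p = 0.0905) did not pass the test. Of 18 other 5′ TOP mRNAs 0 were higher and 3 were lower: Nap1l1 (−0.28, adjusted p = 0.0157), Hnrnpa1 (−0.24, adjusted p = 0.0291) and Tpt1 (−0.30, adjusted p = 0.0291), with a list median of −0.09. The 3 lower genes are 16.7% of that list, against 11.5% of all genes. Without shGm26917 replicate 2 all 3 calls were lost (adjusted p = 0.132 for Nap1l1, 0.168 for Hnrnpa1 and 0.0586 for Tpt1), and without shGm26917 replicate 1 those of Hnrnpa1 (0.103) and Tpt1 (0.149) were. Eef1b2, Eef2 and Rack1, in the list of other 5′ TOP mRNAs, were also in that of protein-coding hosts, and none of them was called. The difference between the host lncRNAs' median of 0.15 and these list medians was not tested.

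**Figure D5:**
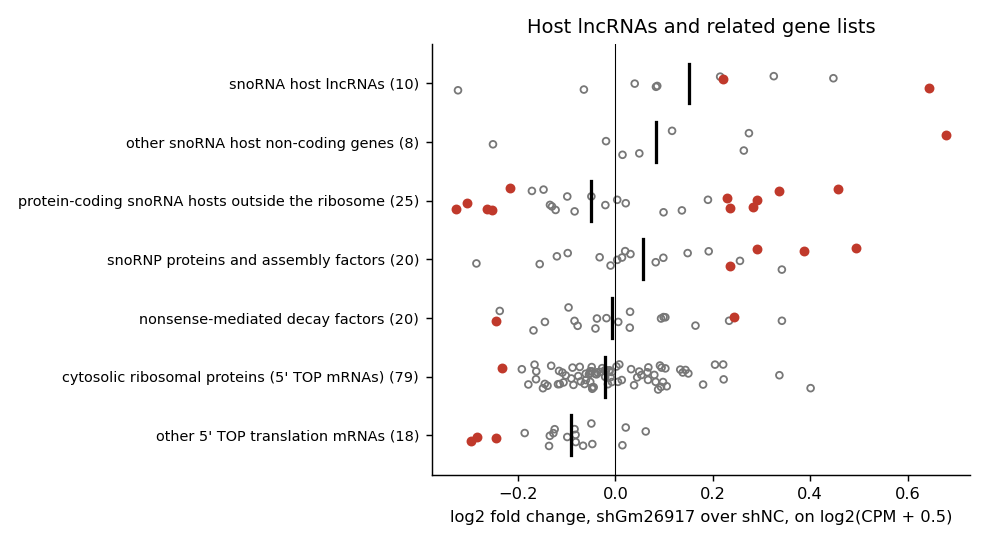
Log2 difference of each listed gene, shGm26917 over shNC, on the log2(CPM + 0.5) scale, for the host lncRNAs and 6 related lists, with the number of listed genes in brackets; filled red points passed an adjusted p under 0.05, open points did not, and black bars are list medians. The bars run from 0.15 for the host lncRNAs to −0.09 for the other 5′ TOP mRNAs.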

How the data were processed

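RNA-seq of 2 shGm26917 and 2 shNC FGSC libraries was analysed, grouped by the genotype label, with the replicate number that each title carries. The authors deposited CPM per gene, made, by the submitters' processing notes, with RSEM 1.2.28, Bowtie2 2.1.0 and edgeR on mm10. Neither the use of strand in counting nor the annotation release is given in the sources used here. Low genes had been left out, since the second-highest value of each listed gene was never under 1.003 CPM. The deposited log2 fold change, fold ratio and p-value columns hold the authors' comparison and were not used.

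Values were taken as log2(CPM + 0.5) and fitted over all 12701 genes with limma 3.58.1 (R 4.3.3), with a variance trend, robust moderation and Benjamini-Hochberg adjustment, and called at an adjusted p under 0.05. Fold changes on this scale understate changes of low genes. Of the gene identifiers, 12562 were found in GENCODE M21 (12488 at the same position), which gave gene models and snoRNAs. The fit was tested on simulated data with known changes. Low values were within 0.02 of whole reads for only 33.7% to 67.9% of values under 2 CPM, so depths are approximate and no count model was run. No replicates of a group held identical non-zero values (Pearson r across genes 0.996 in shGm26917 and 0.993 in shNC).

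All members were named. From each other list the 3 genes with the smallest p were named, and for each member the listed genes that overlap it or start within 2000 bases. Some genes that this rule names are not reported here. The members and lists were chosen with earlier results of these data known. Alternatives were the pseudocount (0.1 or 1), median-ratio or upper-quartile scaling, a filter of 5 CPM in at least 2 libraries, no trend or robust moderation, a replicate block, each library left out, and the study's thresholds (an unadjusted p up to 0.05 and a fold from 1.5). Added after the data were seen were the summed Snhg4 rows and a table restricted to chromosomes without the Gm26917 locus, ribosomal RNA and mitochondrial genes.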

Additional observations from a re-analysis of the deposited data

How the results depend on the processing

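Of 130 member values under alternatives, 118 kept their direction and side of the threshold. With trend and robust moderation off, 929 genes were higher and 918 lower, against 1469 and 1461, and 1 member, Snhg4, was called; the calls of Rcc1, Dancr, Gnl3, Nat10, Nop56, Xrn1, Nap1l1, Hnrnpa1 and Tpt1 were lost too (adjusted p = 0.0567 to 0.139 with Gas5). At an unadjusted p up to 0.05 with a fold from 1.5, 413 genes were higher and 477 lower, with 1 member higher. Leaving out each library in turn gave 752 to 1793 genes higher, 832 to 1735 lower, 1 to 4 members higher and 0 to 1 lower. In those settings the log2 difference ran between −0.16 and 0.33 for Snhg1, −0.13 and 0.21 for Snhg8, −0.16 and 0.034 for Snhg12, −0.25 and 0.20 for the protein-coding Snhg4 row, −0.038 and 0.57 for 2410006H16Rik, −0.014 and 0.25 for Snhg14 (adjusted p = 0.0101 without shNC replicate 1), −0.11 and 0.075 for Snhg15 and −0.032 and 0.061 for Snhg16. The cause was not tested. The replicate block gave 1979 genes higher and 2003 lower, and 3 members higher and 0 lower, with Snhg3 added (adjusted p = 0.00297). Same-numbered replicates did not deviate together (r = 0.06 over 12701 genes, 2 pairs), so the numbers were not taken to pair the samples. Pnrc2, Rpl7a, Gm50163 and Gm26917 also passed under the block, and no call of the other members, of genes overlapping or beside them or of genes named from the lists changed under it; the cell type markers were not compared across settings. Without shNC replicate 1 Pnrc2 and Rpl7a passed, and without shNC replicate 2 Rpl7a and Rpl28 did. The pseudocounts, both scalings, the 5 CPM filter and the settings added after the data were seen kept 2 members higher and 0 lower. Depth limits Epb41l4aos most, at an approximate 81 to 114 reads per library.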

Other observations

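The snoRNA rows listed in the table were 4, Rnu3b1, Rnu3b2, Rnu3b3 and Rnu3b4, copies of the U3 snoRNA that takes part in cleavage of the ribosomal RNA precursor and is transcribed from its own genes, not from a host intron. All 4 held the same values, 0 and 0 CPM in shGm26917 FGSCs, against 1.06 and 1.46 CPM in shNC FGSCs, so near-identical copies were not separated by the counting and they amount to a single measurement. They were listed only through their shNC values and, at 0 in both shGm26917 libraries, have no fold. Of the 1507 snoRNA entries in the annotation these were the only ones the table listed.

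Snhg14, the long imprinted host whose annotated interval holds 208 snoRNA entries, was at 770.0 and 755 CPM in shGm26917 FGSCs, against 769.7 and 643 CPM in shNC FGSCs, a log2 difference of 0.12 (95% interval −0.09 to 0.33, adjusted p = 0.393, limma). The remaining listed hosts, Snhg15, Snhg16 and Snhg17, had log2 differences of −0.02, 0.01 and 0.05.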
